A study of Mus musculus with 2 samples.

Results

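The RNA of 43 mouse genes of DNA replication and S phase was followed in single CD45+ cells, the leukocyte fraction, sorted from spleens of WT mice. The genes were taken by symbol from a list, and all 43 were found among the 32285 genes of the deposited feature lists. Each group was 1 droplet library. Mice of the Glutoborin group and of the Vehicle group alike were infected for 5 days, by intraperitoneal injection of 10000 iRBCs, a term the labels do not spell out. They were given Glutoborin, a compound not described further in the labels, or Vehicle on days 2 and 4, and spleens were taken on day 5. The number of mice behind a library is not given in the labels. With 1 library a group no test was possible: the values describe these 2 libraries, every interval is a 95% interval, and intervals and limits cover counting error alone.

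Before a cell divides it must copy its genome. In G1 the MCM helicase is loaded onto replication origins by Cdc6 and Cdt1, and in S phase Cdc45 and the GINS complex turn it into a moving helicase behind which the polymerases work. Most of these genes are transcribed by E2F factors at the border of G1 and S phase, so their RNA is low in resting lymphocytes and high in lymphocytes that divide after an infection. The proteins of mitosis are made later, in G2.

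The Glutoborin library held 9646 barcodes and 56862506 UMIs (unique molecular identifiers, which count RNA molecules), and the Vehicle library 8204 barcodes and 48526451 UMIs. After filtering, 8906 Glutoborin and 6493 Vehicle cells were kept, with medians of 4811 and 5688 UMIs a cell. Only 4.07% of the Glutoborin barcodes, against 18.5% of the Vehicle barcodes, were left out for 10% or more mitochondrial UMIs. In these left-out barcodes the 43 genes together had 776 CPM (UMIs per 1000000 of the summed total) in the Glutoborin library and 975 CPM in the Vehicle library. The libraries shared 24 barcode sequences. Cells were assigned to classes from marker genes, and a class is named for the type its cells look like.

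By detection of the 43 genes the cells ran from a large group with few of them into a small tail with many. In the Glutoborin library 3849 cells (43.2%) had at least 4 of the 43 detected, against 3327 cells (51.2%) in the Vehicle library. This limit lay in the middle of the main group: 1701 Glutoborin and 1200 Vehicle cells had exactly 3 of the genes, and 1426 and 1021 had exactly 4. Cells with 4 to 9 of the genes were deeper than cells with 0 to 3. Their median was 6007 UMIs in the Glutoborin library and 6484 in the Vehicle library, against 4115 and 4669 in cells with 0 to 3. A list of 46 mitosis genes had 470 CPM in Glutoborin and 464 CPM in Vehicle cells with 4 to 9 of the replication genes, against 407 and 375 CPM in cells with 0 to 3. When each cell was thinned to 2000 UMIs, and the 191 Glutoborin and 220 Vehicle cells with fewer were left out, 6.98% of Glutoborin cells and 8.83% of Vehicle cells had at least 4 of the genes.

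The small group was taken as the cells with at least 15 genes, and its cells are called list-rich here. This limit was set after the distribution was seen, and no gap in the distribution marked it. They numbered 217 in the Glutoborin library, 2.44% of its cells (2.13 to 2.78%), and 269 in the Vehicle library, 4.14% (3.67 to 4.66%). Cells ran on through the limit: 39 Glutoborin and 67 Vehicle cells had 12 to 14 of the genes, 44 and 44 had 15 to 17, and 173 and 225 had 18 to 43. List-rich cells held 38.3% of all UMIs of the 43 genes in the Glutoborin library and 49.9% in the Vehicle library. By comparison, cells with at least 4 of the genes held 80.3% and 87.2%. Mki67, the proliferation antigen whose RNA is made in dividing cells, was detected in 53.0% of Glutoborin and 45.0% of Vehicle list-rich cells, and in 0.989% and 0.663% of cells with 0 to 3 of the genes. List-rich cells were deep, with medians of 15155 and 16318 UMIs. Other deep cells varied in their share of them. Of the monocytes, with medians of 11538 and 11423 UMIs, 0 of 205 in the Glutoborin library (up to 1.46%) and 1 of 299 in the Vehicle library were list-rich. Of the type 1 dendritic cells, the deepest of the classes, 1 of 19 and 2 of 9 were, and of an unnamed cluster with medians of 9450 and 9273 UMIs, 18 of 141 (12.8%) and 13 of 111 (11.7%) were. In thinned cells, at least 8 of the genes were detected in 1.25% of Glutoborin and 2.38% of Vehicle cells.

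**Figure D1:**
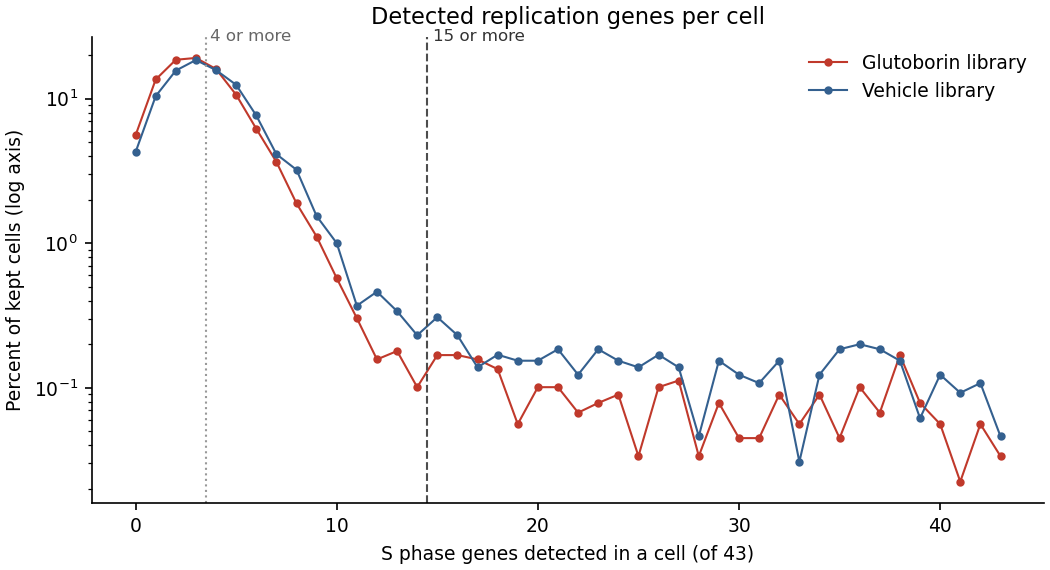
Percent of kept cells (log axis) by the number of the 43 genes detected in a cell, for the Glutoborin library (red) and the Vehicle library (blue); vertical lines mark 4 and 15 genes. The main group peaks at 3 genes in both libraries, and beyond 15 genes a low plateau runs on to 43, holding 2.44% of Glutoborin and 4.14% of Vehicle cells.

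The genes differed widely in how far their RNA was confined to list-rich cells. To keep a gene from counting toward its own group, its UMIs were placed by the number of the other 42 genes detected in each cell. Pclaf, which binds the sliding clamp, had 91.4% of its UMIs in cells with at least 15 of the other genes in the Glutoborin library and 94.1% in the Vehicle library. Rrm2, the S phase subunit of ribonucleotide reductase, had 90.8% and 93.3%. Cdc6, the origin licensing ATPase, had 89.4% and 93.5%. Mcm10, a helicase activator, had 93.4% and 87.8%, and was the only gene of the 43 with the higher share in the Glutoborin library. At the other end stood genes with broad RNA. Pold1, the catalytic subunit of the polymerase that copies the lagging strand, had 11.9% of its UMIs in list-rich Glutoborin cells and 20.6% in list-rich Vehicle cells. Rfc2, a clamp loader subunit, had 14.9% and 20.03%, Pola2, an accessory subunit of the priming polymerase, 15.8% and 22.7%, and Cdt1 17.9% and 27.5%. Slbp, which binds the end of histone mRNA, had 20.6% and 31.6%.

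**Figure D2:**
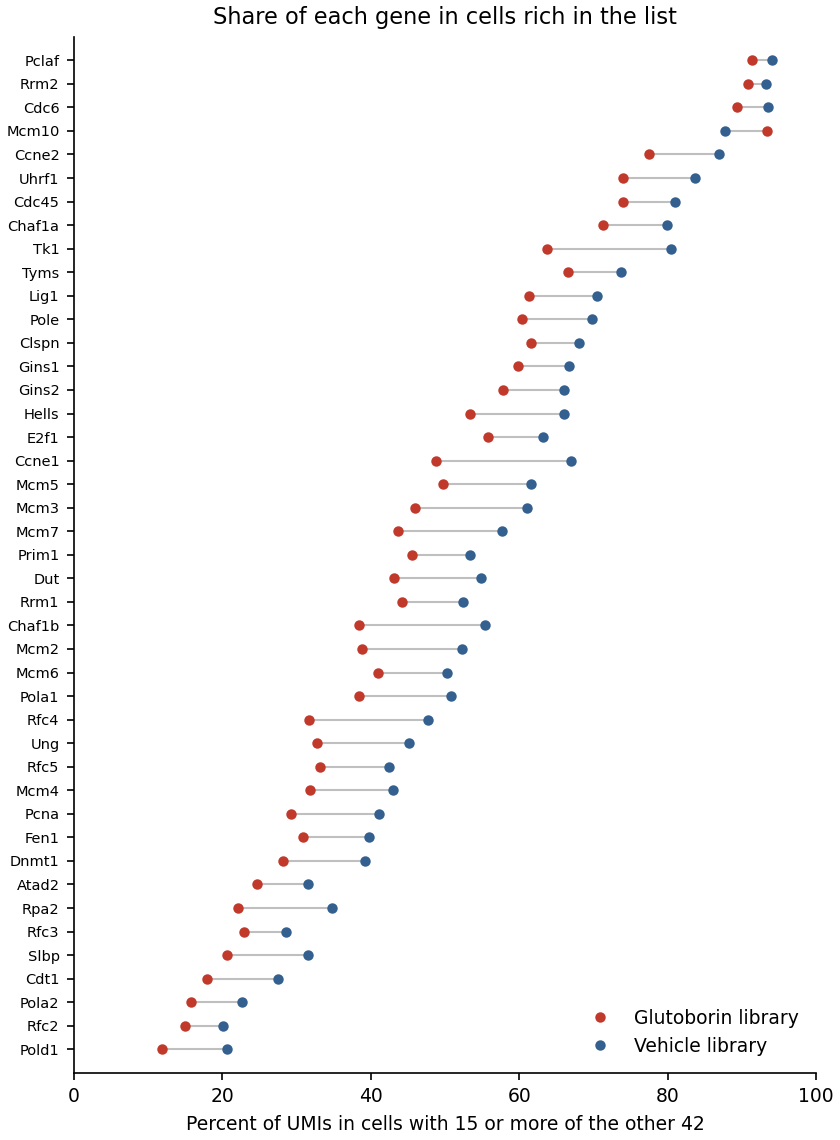
Percent of each gene's UMIs that lay in cells with 15 or more of the other 42 genes detected, for the Glutoborin library (red) and the Vehicle library (blue), sorted by the share over both libraries. Pclaf, Rrm2, Cdc6 and Mcm10 lie near 90% in both libraries, Pold1, Rfc2 and Pola2 at or under 22.7%, and all genes but Mcm10 have the lower share in the Glutoborin library.

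The promoters of 36 of the 43 genes were found in a RefSeq table of windows from 250 bases before to 50 bases after each gene start (assembly GRCm38.p6). An E2F element, spelled TTTCCCGC, TTTCGCGC, TTTGCCGC or TTTGGCGC and searched on both strands, where matches can overlap, occurred in 15 of these 36 genes (41.7%). It occurred in 704 of the 27025 genes of the table (2.605%). The 15 genes were Cdc6, Cdt1, Clspn, Dnmt1, Hells, Lig1, Mcm3, Mcm5, Mcm6, Mcm7, Pclaf, Pola1, Pold1, Rfc3 and Uhrf1. They included genes confined to list-rich cells, such as Pclaf, and broad ones, such as Pold1: 9 of 17 genes with at least 50% of their UMIs in list-rich cells had a match, and 6 of 19 genes below that. CCAAT, the box bound by NF-Y, occurred in 55.6% of the 36 genes and 41.1% of all genes of the table. The CHR, spelled TTTGAA or TTCGAA and typical of genes of late cell cycle, occurred in 16.7% of the 36 genes and 21.7% of all genes. Annotations place some starts differently, so the 3 promoters printed are those with an E2F match before both the RefSeq and the GENCODE start. Such a match was found in 3 of the 32 genes with enough sequence before both starts. Mcm5 and Mcm6, which encode helicase subunits, were at least 1.5-fold lower in Glutoborin in NK and CD8 T cells. Pola1, the catalytic subunit of the priming polymerase, was so in CD8 T cells. These ratios were not used to choose the promoters. Each printed promoter is the 250 bases before the RefSeq start, 5′ to 3′ on the gene's strand, with E2F matches in capitals.
Mcm5 promoter, chr8:75109259-75109508, plus strand, 2 overlapping matches: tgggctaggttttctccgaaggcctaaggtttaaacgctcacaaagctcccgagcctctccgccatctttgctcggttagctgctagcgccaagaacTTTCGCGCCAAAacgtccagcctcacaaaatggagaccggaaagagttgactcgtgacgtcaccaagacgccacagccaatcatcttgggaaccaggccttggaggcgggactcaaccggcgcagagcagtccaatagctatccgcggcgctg
Mcm6 promoter, chr1:128359706-128359955, minus strand, 3 matches: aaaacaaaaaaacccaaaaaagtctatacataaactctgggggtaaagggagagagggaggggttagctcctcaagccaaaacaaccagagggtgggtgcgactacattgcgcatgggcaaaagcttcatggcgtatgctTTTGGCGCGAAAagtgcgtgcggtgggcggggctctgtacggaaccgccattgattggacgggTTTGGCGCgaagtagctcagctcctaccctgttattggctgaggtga
Pola1 promoter, chrX:93632156-93632405, minus strand, 1 match: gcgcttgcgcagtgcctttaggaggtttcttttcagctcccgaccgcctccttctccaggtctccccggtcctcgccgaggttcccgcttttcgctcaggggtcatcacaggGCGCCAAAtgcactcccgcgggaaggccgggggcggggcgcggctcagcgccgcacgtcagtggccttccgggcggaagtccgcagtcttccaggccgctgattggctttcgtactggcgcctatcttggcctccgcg
A match is a stretch of letters and no evidence that a factor binds there.

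Over all kept cells the 43 genes together had 55384 UMIs, or 1054 CPM, in the Glutoborin library and 56983 UMIs, or 1291 CPM, in the Vehicle library, a log2 ratio of Glutoborin over Vehicle of -0.29 (-0.31 to -0.28). Gene by gene, in sums over all cells, the difference was wide but shallow. It was uneven between cell classes, as given below. The ratio was below 0 for 40 of the 43 genes, with a median of -0.32 against 0.00 over all 12622 genes with at least 50 UMIs. Only 3 of the 43 were at least 1.5-fold lower, and none was 1.5-fold higher, where 3.06% of all genes were lower and 3.44% higher by that much. These were Hells, a chromatin remodeller of S phase, with 905 UMIs (17.2 CPM) against 1286 UMIs (29.1 CPM) and a log2 ratio of -0.76; Gins1, a helicase subunit, with 117 and 159 UMIs and -0.69; and Uhrf1, which reads hemimethylated DNA behind the fork, with 615 and 782 UMIs and -0.60. The 3 genes at or above 0 were Pold1 at 0.20, the thymidine kinase Tk1 at 0.11 and Cdt1 at 0.00.

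By role, the shift was largest for origin licensing and the helicase. Its 12 genes (Mcm2 to Mcm7, Mcm10, Cdc6, Cdt1, Cdc45, Gins1 and Gins2) had 251 CPM in the Glutoborin library and 327 CPM in the Vehicle library, a log2 ratio of -0.39. The 9 genes of the sliding clamp, its loader and strand maturation (Pcna, Rfc2 to Rfc5, Fen1, Lig1, Rpa2 and Pclaf) had 319 and 395 CPM, a ratio of -0.31. In this group the Rfc proteins load the clamp, Fen1 and Lig1 trim and join the pieces of the lagging strand, and Rpa2 coats single-stranded DNA. Pcna, the clamp itself, had 4172 UMIs (79.4 CPM) in the Glutoborin library and 4719 UMIs (107 CPM) in the Vehicle library, a ratio of -0.43. The 6 genes of nucleotide supply and uracil removal (Rrm1, Rrm2, Tyms, Dut, Tk1 and Ung) had 144 and 175 CPM, and the 7 genes that copy chromatin and methylation (Hells, Uhrf1, Dnmt1, Chaf1a, Chaf1b, Atad2 and Slbp) had 226 and 268 CPM. Chaf1a and Chaf1b place histones on new DNA, Atad2 is a chromatin ATPase, and Tyms and Dut make and protect the pool of thymidine nucleotides. Chaf1b overlaps another annotated gene on its strand, so its UMIs are uncertain. The 4 regulators (the cyclins Ccne1 and Ccne2, the transcription factor E2f1 and the fork protector Clspn) had 28.8 and 35.2 CPM. The smallest difference was that of the 5 polymerase and primase genes (Pola1, Pola2, Prim1, Pold1 and Pole), with 85.4 and 89.8 CPM and a ratio of -0.07.

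Levels were also taken on each side of the limit of 15. Because that limit counts the same genes, near-equal levels on each side are in part fixed by the split and are given as a description. Cells under the limit of 15 had 701 CPM of the 43 genes in the Glutoborin library and 728 CPM in the Vehicle library, a log2 ratio of -0.06. List-rich cells had 5586 and 5737 CPM, a ratio of -0.04, and among them, again placed by the other 42 genes, none of the 43 differed by 1.5-fold: the ratios ran from -0.43 for Hells to 0.41 for Tk1. The share of list-rich cells itself had a log2 ratio of -0.77 (-1.03 to -0.50).

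The cell classes differed in this respect. NK cells, innate killer lymphocytes, and CD8 T cells had the largest differences among the 6 classes compared, each of 100 cells or more per library. NK cells had 6617 UMIs of the 43 genes (2341 CPM) in the Glutoborin library and 8909 UMIs (3627 CPM) in the Vehicle library, a log2 ratio of -0.63 (-0.68 to -0.59). CD8 T cells had 11242 UMIs (1150 CPM) and 16379 UMIs (1939 CPM), a ratio of -0.75 (-0.79 to -0.72). Regulatory T cells, which restrain other lymphocytes, had 925 and 1311 CPM, a ratio of -0.50 (-0.63 to -0.38). Few cells carried much of the sums of these classes. The 10 richest cells held 29.8% of the UMIs of the 43 genes in Glutoborin NK cells and 26.02% in Vehicle NK cells. In CD8 T cells they held 21.5% and 28.4%, and in regulatory T cells 42.7% and 50.4%. Without those cells the ratio was -0.72 in NK cells, -0.68 in CD8 T cells and -0.35 in regulatory T cells. Monocytes had 402 and 473 CPM, a ratio of -0.23 (-0.35 to -0.12). B cells and CD4 T cells were close to even, with 959 and 1004 CPM (ratio -0.07) and 734 and 746 CPM (ratio -0.02). Differences between classes were not tested.

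Among the 6 classes compared, list-rich cells were most frequent in NK cells. They were 47 of 355 NK cells (13.2%, 9.89 to 17.2%) in the Glutoborin library and 71 of 252 (28.2%, 22.7 to 34.2%) in the Vehicle library. In CD8 T cells they were 49 of 1235 (3.97%) and 68 of 904 (7.52%). Thus NK cells, a minor class, held 47 of 217 and 71 of 269 list-rich cells. B cells, the largest class, had 70 of 5175 (1.35%) and 66 of 3561 (1.85%). CD4 T cells had 6 of 1167 and 7 of 850, and regulatory T cells 3 of 169 and 9 of 146. In cells under the limit, a choice made on the same genes, the ratio of the 43 genes was -0.09 in NK cells (-0.20 to 0.01), -0.07 in CD8 T cells, -0.04 in B cells, -0.03 in CD4 T cells, -0.28 in regulatory T cells and -0.21 in monocytes. In list-rich cells it was -0.12 in NK cells, -0.20 in CD8 T cells, 0.12 in B cells, 0.44 in the few such CD4 T cells and 0.50 in the few such regulatory T cells.

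The classes also differed in depth between libraries. The median NK cell had 6694 UMIs in the Glutoborin library and 8752 in the Vehicle library, and the median CD8 T cell 6992 and 7703. At a fixed 2000 UMIs, 8.17% of Glutoborin and 19.8% of Vehicle NK cells had at least 8 of the genes. The same share was 1.87% and 4.99% in CD8 T cells and 0.567% and 0.914% in B cells, so the Glutoborin share was the lower at equal depth too, with overlapping intervals in B cells. Over the thinned cells, each of which weighs the same, the summed 43 genes had a log2 ratio of -0.77 in NK cells, -0.33 in CD8 T cells, -0.27 in regulatory T cells and -0.17 over all cells. With doublet calls kept it was 0.00023 in B cells, 0.047 in CD4 T cells and 0.0019 in monocytes. Markers of NK cells summed to 21182 CPM in Glutoborin and 21520 CPM in Vehicle NK cells. T cell markers in the same cells summed to 312 and 207 CPM, and B cell markers to 215 and 320 CPM. The source of this T and B cell marker RNA, and its bearing on the ratios, was not tested.

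**Figure D3:**
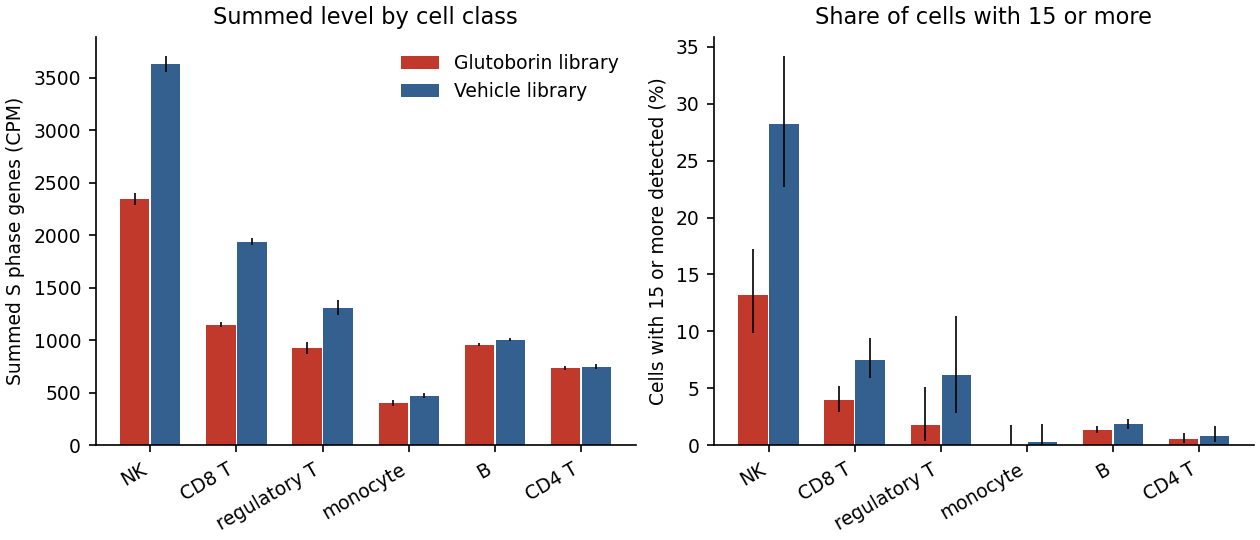
Left, summed level of the 43 genes in CPM, and right, percent of cells with 15 or more of them, in 6 cell classes for the Glutoborin library (red, left bar) and the Vehicle library (blue, right bar); error bars are 95% counting intervals. NK cells stand highest in both panels, with 2341 against 3627 CPM and 13.2% against 28.2% of cells, while B and CD4 T cells have nearly equal levels.

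In NK cells 42 of the 43 genes had at least 50 UMIs over both libraries, and 27 of the 42 were at least 1.5-fold lower in Glutoborin, where 5.55% of all measured genes were; none was 1.5-fold higher. The ratio was below 0 for 41 of the 42, with a median of -0.73 against 0.01 for all genes. The gene not counted, Gins1, had 19 and 26 UMIs. Licensing, uracil removal and chromatin remodelling gave the lowest ratios. Cdc6, which loads the helicase, had 23 UMIs (8.14 CPM) in the Glutoborin library and 74 UMIs (30.1 CPM) in the Vehicle library, a log2 ratio of -1.89 (-2.63 to -1.20). Ung, which removes uracil from DNA, had 22 and 69 UMIs, a ratio of -1.85. Hells had 83 and 206 UMIs, a ratio of -1.51. Helicase subunits followed: Mcm3 had 233 UMIs (82.4 CPM) and 450 UMIs (183 CPM), a ratio of -1.15, and Cdc45 had 41 and 77 UMIs and Mcm2 116 and 217 UMIs, both with a ratio of -1.11. E2f1, the transcription factor of the G1 to S border, had 32 and 60 UMIs, also -1.11.

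Of the other genes 1.5-fold lower in NK cells, Pole, Mcm4, Gins2, Chaf1b, Mcm5, Mcm10, Uhrf1, Prim1, Rfc3, Pcna and Chaf1a had ratios between -0.98 and -0.82. Pcna had 180 CPM in the Glutoborin library and 319 CPM in the Vehicle library. Dnmt1, which restores methylation on the new strand, Mcm7, Ccne1, Mcm6, Rfc4, Rfc5, Lig1, Dut and Ccne2 had ratios between -0.77 and -0.60. The genes within 1.5-fold included those of deoxynucleotide synthesis. Rrm2 had 273 and 290 UMIs (ratio -0.29), its partner Rrm1 -0.40, thymidylate synthase Tyms 149 and 151 UMIs (-0.22), and Tk1 112 and 91 UMIs, the only ratio above 0 at 0.10. Pclaf had 564 and 609 UMIs (-0.31), and Rfc2 and Rpa2 had -0.04 and -0.05. Clspn, Pold1, Slbp, Cdt1, Pola2, Atad2, Fen1 and Pola1 lay between -0.57 and -0.24.

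In sums not adjusted for depth, CD8 T cells, the cytotoxic T cells, had more genes lower, and in another order. All 43 were measured, 32 were at least 1.5-fold lower in Glutoborin (4.64% of all measured genes were) and none was higher (2.01%). All 43 ratios were below 0, with a median of -0.88 against -0.05 for all genes. Rrm2 had the lowest, with 227 UMIs (23.2 CPM) in the Glutoborin library and 580 UMIs (68.7 CPM) in the Vehicle library, a ratio of -1.56 (-1.79 to -1.34). Mcm10 had 22 and 55 UMIs and Uhrf1 130 and 325 UMIs, both at -1.53. Gins1, Ccne2, Gins2, Cdc6, Cdc45 and Hells lay between -1.52 and -1.21. Pclaf had 541 and 1040 UMIs, a ratio of -1.15. Genes of nucleotide supply that lay within 1.5-fold in NK cells were lower here: Tk1 had 103 and 189 UMIs (-1.09), Tyms 167 and 299 UMIs (-1.05) and Rrm1 254 and 414 UMIs (-0.92). Pole, Chaf1a, E2f1, Mcm5, Ccne1, Clspn, Pola1, Mcm2, Dut, Rfc3, Lig1, Rfc5, Mcm4, Mcm6, Mcm3, Fen1, Dnmt1, Mcm7 and Prim1 completed the 32, at -1.14 to -0.61. Within 1.5-fold were Ung, Pcna, Chaf1b, Rfc4, Pold1, Atad2, Slbp, Rfc2, Rpa2, Cdt1 and Pola2, at -0.58 to -0.12. By role, nucleotide supply had 171 and 344 CPM in CD8 T cells, and 397 and 543 CPM (-0.45) in NK cells. Licensing and helicase had a ratio of -0.79 in CD8 T cells and -0.93 in NK cells. List-rich CD8 T cells had medians of 15155 UMIs in the Glutoborin library and 20182 in the Vehicle library, and list-rich NK cells 14775 and 14413. In thinned cells, each of the same weight, the summed ratio was -0.33 in CD8 T cells and -0.77 in NK cells.

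**Figure D4:**
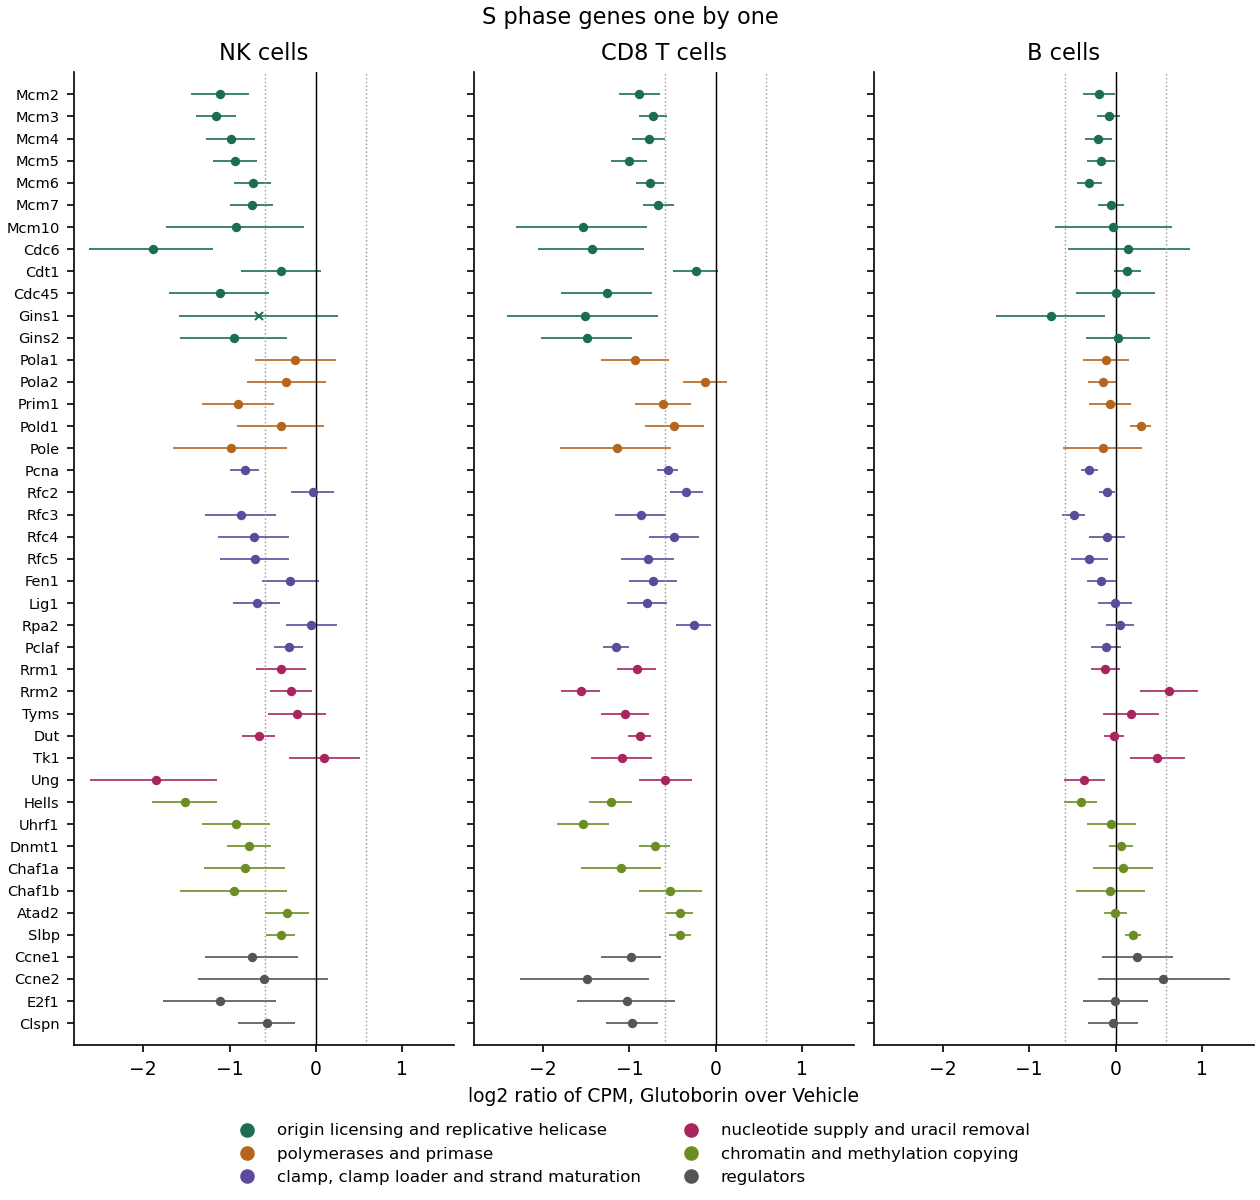
Log2 ratio of CPM, Glutoborin over Vehicle, of each of the 43 genes in NK cells, CD8 T cells and B cells, coloured by role, with 95% counting intervals; dotted lines mark 1.5-fold, and a cross marks Gins1 in NK cells, which had under 50 UMIs. Nearly all points lie left of 0 in NK and CD8 T cells, with Cdc6 and Ung lowest in NK cells and Rrm2 in CD8 T cells, while points for B cells scatter around 0.

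CD8 T cells and NK cells were each looked at by cluster. CD8 T cells fell into 2, of which the smaller had the difference. The larger, led by Cd8b1, Cd8a and Dapl1 (893 Glutoborin and 631 Vehicle cells), had 739 and 750 CPM of the 43 genes, a ratio of -0.02. The smaller, led by Ctla2a, Pclaf and Gzmm (342 and 273 cells), had 1824 and 3386 CPM, a ratio of -0.89, and 13.2% of its Glutoborin cells and 23.4% of its Vehicle cells were list-rich. NK cells also fell into 2, the larger led by Gzma and Ncr1 (319 and 233 cells), with 1245 and 2680 CPM and a ratio of -1.11. The smaller, led by Mki67, Top2a and Ube2c, had 36 and 19 cells, in which NK markers were detected in 93.8% of cells on average. It had 6091 and 9566 CPM, a ratio of -0.65, and 29 of its 36 Glutoborin cells and all 19 of its Vehicle cells were list-rich. All NK cells taken as 1 class had a ratio of -0.63, closer to 0 than either cluster.

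Of the 43 genes in B cells, 1 was at least 1.5-fold lower and 1 higher, where 3.17% and 2.68% of all measured genes were. Gins1 had 39 and 51 UMIs, a ratio of -0.75, and Rrm2 had 222 UMIs (8.54 CPM) in the Glutoborin library and 113 UMIs (5.58 CPM) in the Vehicle library, a ratio of 0.61 (0.28 to 0.95). List-rich B cells lay mostly in the cluster led by Il4i1, Marcksl1 and Cd83, activation genes, which had 56 of 415 list-rich cells (13.5%) in the Glutoborin library and 52 of 334 (15.6%) in the Vehicle library, and 2354 and 2223 CPM of the 43 genes. Different clusters made up the rest of the class: the one led by Fcer2a held 1228 Glutoborin and 352 Vehicle cells, and the one led by Serpina3f held 268 and 1087. Their levels were 783 and 758 CPM and 763 and 780 CPM. In CD4 T cells 0 of 29 measured genes were 1.5-fold lower (2.51% of all genes) and 0 higher (2.39%). In regulatory T cells 6 of 15 were lower (5.36%): Mcm6 with 35 and 90 UMIs, Mcm3 with 27 and 67, Rfc3 with 15 and 37, Lig1 with 21 and 43, Mcm2 with 27 and 45 and Atad2 with 45 and 71. Rpa2 was higher, with 37 and 25 UMIs (2.83% of genes were higher). In monocytes 1 of 14, Rpa2 with 27 and 57 UMIs, was lower (6.35%) and none higher (3.55%).

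Genes of mitosis, summed over all NK cells, were higher in Glutoborin, but they were lower in the NK cells left once the cluster led by Mki67 was split off. The 46 mitosis genes had 3740 CPM in Glutoborin NK cells and 2386 CPM in Vehicle NK cells, a log2 ratio of 0.65 (0.60 to 0.69). Of them, 26 were at least 1.5-fold higher, where 6.73% of all measured genes were, and none was lower. Ccnb1, the cyclin of mitotic entry, had 122 UMIs in the Glutoborin library and 20 UMIs in the Vehicle library, a ratio of 2.41. Cenpf, a kinetochore protein, had 380 and 71 UMIs (2.22), Ube2c and Cdc20, which drive the exit from mitosis, 633 and 122 UMIs (2.17) and 192 and 41 UMIs (2.02), and the mitotic kinase Plk1 127 and 29 UMIs (1.93). The same list was lower in CD8 T cells along with the replication genes. It had 1031 and 1447 CPM, a ratio of -0.49 (-0.53 to -0.45). Of its 46 genes, 28 were at least 1.5-fold lower, where 4.64% of all measured genes were. Plk1, for example, had 54 and 125 UMIs there. In B cells the ratio of the mitosis list was 0.07, in CD4 T cells 0.12, in regulatory T cells -0.37 and in monocytes -0.12, and over all cells it was 0.07.

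The mitosis RNA of NK cells came from few cells: the 10 richest held 43.2% of it in the Glutoborin library and 48.0% in the Vehicle library. Without those 10 cells in each library the ratio was 0.77. The small cluster led by Mki67 had 14688 and 12514 CPM of the list, a ratio of 0.23. In the large NK cluster, 319 of the 355 Glutoborin and 233 of the 252 Vehicle NK cells, the list was lower in Glutoborin, with 540 and 771 CPM and a ratio of -0.51. Without the 10 richest cells of each library in that cluster the ratio was -0.30. The small cluster was led by cell cycle genes, so the split moved mitosis RNA out of the large cluster. The ratio of the large cluster is therefore only a description. The sign of the NK ratio thus depended on the 36 Glutoborin and 19 Vehicle cells of the small cluster. NK cells with 10 to 14 of the 43 genes were few and differed between the libraries. The 13 such Glutoborin cells had 11737 CPM of the mitosis list and the 13 such Vehicle cells 429 CPM.

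**Figure D5:**
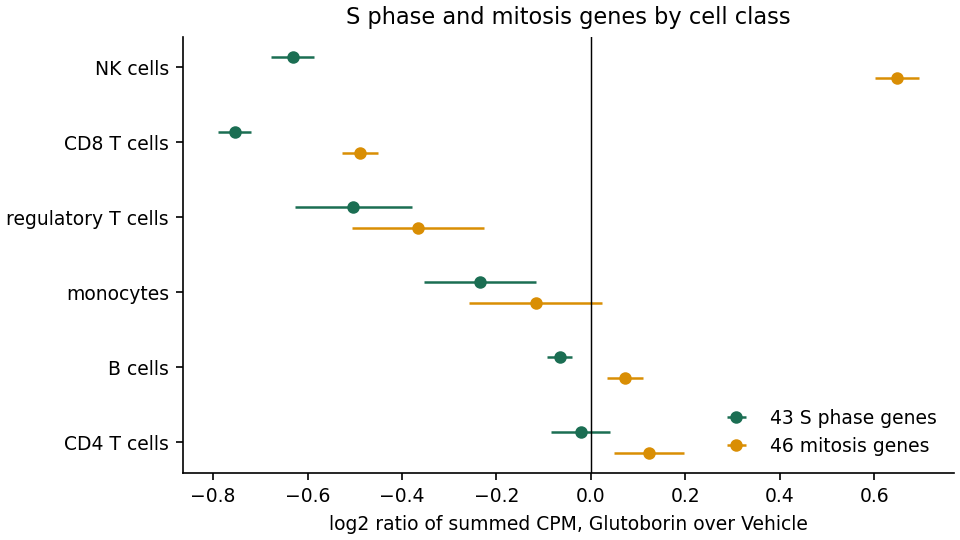
Log2 ratio of summed CPM, Glutoborin over Vehicle, of the 43 replication genes (green) and the 46 mitosis genes (orange) in 6 cell classes, with 95% counting intervals. The lists lie on opposite sides of 0 in NK cells (-0.63 and 0.65) and on the same side in CD8 T cells (-0.75 and -0.49). In the larger NK cluster, left once the cluster led by Mki67 was split off, the ratios were -1.11 and -0.51.

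Cells were therefore sorted by both lists, using at least 15 of the replication genes and at least 10 of the mitosis genes, limits also set after the data were seen. These limits do not fix a cell's phase, since the mitosis list holds Ccna2, a cyclin of S phase and G2. List-rich cells with fewer than 10 mitosis genes numbered 91 (1.02%) in the Glutoborin library and 149 (2.29%) in the Vehicle library. The log2 ratio of shares was -1.17 (-1.56 to -0.78). They had medians of 12555 and 13888 UMIs, against 18354.5 and 20188 in list-rich cells with 10 or more mitosis genes. List-rich cells with 10 or more mitosis genes numbered 126 (1.41%) and 120 (1.85%), a ratio of -0.39 (-0.76 to -0.01). Cells with 10 or more mitosis genes alone numbered 37 (0.415%) and 21 (0.323%), a ratio of 0.36 (-0.45 to 1.21). The difference between the libraries was thus largest for cells rich in replication genes alone. In NK cells these were 14 (3.94%) and 34 (13.5%), a ratio of -1.77 (-2.79 to -0.84), those with both 33 (9.30%) and 37 (14.7%), and those with mitosis genes alone 12 (3.38%) and 2 (0.794%). For CD8 T cells they were 20 and 28, those with both 29 and 40, and those with mitosis genes alone 10 and 4, ratios of -0.94, -0.91 and 0.87, the last with an interval that included 0. In B cells they were 30 and 40 (-0.95), and those with both 40 and 26 (0.08).

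The same states were counted in thinned cells. At 2000 UMIs, with at least 8 replication genes and at least 4 mitosis genes as limits, cells rich in replication genes alone were 1.41% of Glutoborin NK cells and 8.91% of Vehicle NK cells. Cells rich in both were 6.76% and 10.9%, and cells rich in mitosis genes alone 6.20% and 2.02%. NK cells with at least 4 mitosis genes, whatever their replication genes, were 12.96% in both libraries (46 of 355 and 32 of 247). Among CD8 T cells the shares were 0.407% and 1.78% for replication genes alone, 1.46% and 3.22% for both, and 1.79% and 1.33% for mitosis genes alone. B cells did not keep the order of the unthinned counts: 0.274% and 0.457% were rich in replication genes alone, 0.293% and 0.457% in both, and 0.586% and 0.686% in mitosis genes alone, with overlapping intervals. In list-rich cells as a whole the mitosis list had 5142 CPM in the Glutoborin library and 3571 CPM in the Vehicle library, and in list-rich NK cells 9101 and 4976 CPM.

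Neighbouring lists gave the rest of the pathway. Of 44 further replication factors (origin recognition, GINS, polymerase and fork proteins outside the 43), none was 1.5-fold apart over all cells, and their sum had a ratio of -0.07. The shares of all measured genes given above (in NK cells 5.55% lower and 6.73% higher, in CD8 T cells 4.64% lower, over all cells 3.06% lower) are the background for the counts that follow. In NK cells 10 of 36 measured were at least 1.5-fold lower, led by the fork protein Timeless (43 and 84 UMIs, -1.17). In CD8 T cells 10 of 40 were, led by the clamp loader subunit Chtf18 (24 and 48 UMIs, -1.21). Of 21 genes of replication repair and checkpoint, 3 were lower over all cells. Chek1, the kinase that halts cells with stalled forks, had 133 UMIs in the Glutoborin library and 231 UMIs in the Vehicle library (-1.05), Rad51ap1 218 and 282 (-0.62), and the exonuclease Exo1 113 and 146 (-0.62). In NK cells 6 of 17 were lower and 1, H2afx, was higher, a share near the background, and in CD8 T cells 9 of 18 were lower. Chek1 had 19 and 72 UMIs in NK cells (-2.12) and 23 and 63 UMIs in CD8 T cells (-1.67).

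Among 28 measured genes of cell cycle entry and its brakes, 2 were lower over all cells: the inhibitor Cdkn1a, with 515 and 748 UMIs (-0.79), and the growth regulator Myc, with 3063 and 3926 UMIs (-0.61). Of 25 further genes of nucleotide supply, Samhd1, which degrades deoxynucleotides and is also induced by interferon, was the only one 1.5-fold apart over all cells, with 516 CPM in the Glutoborin library and 839 CPM in the Vehicle library (-0.70). In NK cells 13 of 24 genes of this list were lower and 2 higher, the second count near the 6.73% of all genes, the lowest being Shmt1 of folate metabolism, with 17 and 35 UMIs (-1.24). Of 23 histone genes none was 1.5-fold apart over all cells. In NK cells 9 of 22 were higher, led by Hist1h2ab with 165 and 67 UMIs (1.10), and in CD8 T cells 4 of 21 were lower, led by Hist1h1b with 276 and 666 UMIs (-1.48). Histone mRNA of the replication-dependent kind lacks a poly(A) tail, which limits its capture in such libraries.

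Outside the 43, genes that went with them were sought by their CPM in cells with at least 4 of them over the remaining cells. The 10 with the highest ratio, taking the lower of the 2 libraries, were Ighg2c, Hist1h3b, Bub1, Pbk, Cpa3, Hist1h3c, Ccna2, Aunip, Pimreg and Esco2. Most are genes of mitosis, S phase histones or chromosome cohesion: Ccna2, the cyclin of S phase and G2, had 17.7 CPM in such Glutoborin cells and 0.727 CPM in the rest, and 13.8 and 0.557 CPM in the Vehicle library. Bub1, a spindle checkpoint kinase, had 4.36 and 0.0855 CPM in the Glutoborin library and 3.82 and 0.0619 CPM in the Vehicle library. Ighg2c, an antibody heavy chain gene, and Cpa3, a mast cell protease, have no such role. Ighg2c had 152 and 2.01 CPM in the Glutoborin library and 0.608 and 0 CPM in the Vehicle library.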

How the data were processed

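The authors deposited raw UMI counts, whole numbers for each gene in each barcode, and the file headers name Cell Ranger 6.1.2. The submitters' processing notes list mm10, Seurat 4.3.0 and Cell Ranger 6.0.1. The library kit was 10x 3' v3.1, per the labels. Of 32285 feature identifiers, 32158 (99.6%) were in GENCODE M21. The 43 genes and all lists were chosen with earlier results of these data known.

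Cells needed 300 genes, 500 UMIs and under 10% mitochondrial UMIs. Scrublet in scanpy 1.11.5 called 347 Glutoborin (3.75%) and 195 Vehicle (2.92%) doublets, which were left out. Both libraries were clustered together (counts scaled to 10000 per cell, 2000 variable genes, 30 principal components, 15 neighbours, Leiden resolution 1.5) without any gene of the lists compared among the variable genes. Clusters were named from markers of 20 types, a rebuilt naming: at least 3 markers in 20% of cells, a mean detection of 60% for the best list and under 40% for another lineage, and Cd4, Cd8a or Foxp3 in 40% for T classes. These limits, and those of 15 replication and 10 mitosis genes, were set after the data were seen. The small NK cluster was led by cell cycle genes in 9 of its top 10.

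UMIs were summed per class and library and divided by the class total (CPM). Sums carry exact Poisson, shares Clopper-Pearson and ratios exact conditional intervals (scipy 1.17.1), at 95%. A share of 0 is given with the limit of 3 counts. A gene counted as measured from 50 UMIs over both libraries, and 1.5-fold was the limit for counts. All 43 genes are accounted for; of other lists, up to 5 genes 1.5-fold apart are named per list, over all cells or within a class; of genes outside the 43 with at least 100 UMIs, the 10 with the highest ratio between cells with and without 4 of the genes are named. Scripts were tested on simulated counts. Alternatives were the doublet calls, a 25% mitochondrial limit, other detection limits, thinning, fewer members, fewer cells, another clustering, centring and other UMI minimums.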

Additional observations from a re-analysis of the deposited data

Results flagged for a closer look

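The summed mitosis list had a log2 ratio of Glutoborin over Vehicle of 0.65 in NK cells, with 10570 UMIs (3740 CPM) against 5861 UMIs (2386 CPM), and of -0.49 in CD8 T cells, with 10079 UMIs (1031 CPM) against 12225 UMIs (1447 CPM). It is listed here because the ratios of these classes have opposite signs, while the replication genes were lower in Glutoborin in both. In the larger NK cluster, 319 Glutoborin and 233 Vehicle cells, the mitosis list was lower in Glutoborin (540 against 771 CPM, a ratio of -0.51). Without the 10 richest cells of each library in that cluster the ratio was -0.30. That cluster is what was left once the cluster led by Mki67 was split off, so its sign depends on the split. The difference between the classes was not tested, since each group is 1 library.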

How the results depend on the processing

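No paired analysis was possible because each group is 1 library. The share of cells with at least 4 of the genes, 43.2% in Glutoborin and 51.2% in Vehicle, was 44.7% in Glutoborin with doublet calls kept and 45.1% in Vehicle at the 25% mitochondrial limit; it was 62.3% in Glutoborin and 69.7% in Vehicle for 3 or more genes, 16.6% in Glutoborin and 23.1% in Vehicle for 6 or more, 6.98% in Glutoborin and 8.83% in Vehicle after thinning, 27.8% in Glutoborin and 35.7% in Vehicle without the 3 genes with the most UMIs (Slbp, Pcna and Dut), and 2.44% in Glutoborin and 4.14% in Vehicle for 15 or more. The share of UMIs these cells held was 80.3% in Glutoborin and 87.2% in Vehicle. In Glutoborin it was 81.3% with doublet calls kept, 80.0% at the 25% limit, 90.8% for 3 or more genes, 58.7% for 6 or more, 28.8% after thinning, 71.7% without the 3 genes and 38.3% for 15 or more; in Vehicle it was 87.6%, 85.9%, 94.6%, 70.4%, 36.8%, 80.8% and 49.9% under the same settings in that order. The Vehicle value was the higher under each of these settings.

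Ratios moved beyond their counting interval as follows. Thinning gave -0.17 over all cells, -0.33 in CD8 T cells, -0.27 in regulatory T cells, -0.77 in NK cells and -0.093 in CD4 T cells. Leaving out the 10 cells with the most UMIs of the genes gave -0.27 over all cells, -0.68 in CD8 T cells, -0.35 in regulatory T cells and -0.72 in NK cells. Leaving out list-rich cells, an alternative added after the data were seen like the limit of 15, gave -0.055 over all cells, -0.038 in B cells, -0.068 in CD8 T cells, -0.28 in regulatory T cells and -0.095 in NK cells. Keeping doublet calls gave 0.00023 in B cells, 0.047 in CD4 T cells, -0.34 in regulatory T cells and 0.0019 in monocytes, and the 25% limit 0.026 in B cells, so the signs in B cells, CD4 T cells and monocytes were not stable. Leiden resolution 0.8 gave -0.26 in CD4 T cells and -0.35 in regulatory T cells. In CD8 T cells the ratio was -0.80 without the 3 genes and -0.70 centred on the median gene. Without the small NK cluster, also added later, it was -1.11 in NK cells. The cause was not tested. Counts of genes 1.5-fold lower were 0 in B cells at a minimum of 100 UMIs, 1 in CD4 T cells at 20, 15 of 30 and 2 of 5 in regulatory T cells at 20 and 100, and 3 and 0 in monocytes, since fewer or more genes were then measured. In NK cells they were 28 of 43 and 19 of 34, and in CD8 T cells 32 of 43 and 28 of 39. The share of all genes that were 1.5-fold lower was taken at the main minimum alone. The counts at 20 and 100 UMIs, in every class, therefore have no background and only describe the list. In all, 42 values stayed within their interval or within 1.5 times the count.

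Fixed limits on detected genes favour deep cells, and the Vehicle library was the deeper.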

Other observations

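Classes with under 100 cells in a library were set aside from the comparisons. T cells led by Cxcr6, Ckb and Rora numbered 97 in the Glutoborin library and 71 in the Vehicle library. Genes of the receptor gamma chain were among their leading genes. Trdc, of the delta chain, was detected in only 2.98% of them and Cd4 in 32.1%. The naming split clusters of T cells by Cd4, Cd8a and Foxp3 alone and gave no gamma-delta class, so this cluster got no finer name. These T cells had 1631 and 2534 CPM of the 43 replication genes, and 11 (11.3%) and 27 (38.0%) of them had at least 15 detected. Of these, 7 and 22 had fewer than 10 mitosis genes. Type 1 dendritic cells numbered 19 and 9, and 1 and 2 of them were rich in the list.

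Cells in unnamed clusters went the other way in sum, with 1579 CPM in the Glutoborin library and 1057 CPM in the Vehicle library. Their 10 richest cells held 55.5% and 35.0% of those UMIs. Unnamed cells under the limit of 15 had 501 and 651 CPM, a log2 ratio of -0.38. Rich in the list were 29 of 350 (8.29%) and 18 of 312 (5.77%), with an interval of the log2 ratio of shares from -0.38 to 1.46. Among the unnamed clusters, the one led by the haemoglobin genes Hbb-bs and Hba-a1 and by Car1, genes of red cell precursors, had 3600 and 1825 CPM of the 43 genes, with 10 of 140 and 4 of 107 cells rich in the list. Its cells were shallow, with medians of 1384 and 816 UMIs. The cluster led by Ccnd1, Tbc1d4 and Tmem176a had 18 of 141 (12.8%) and 13 of 111 (11.7%) such cells. The 347 Glutoborin and 195 Vehicle doublet calls held 18 and 15 list-rich barcodes.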
